A study of Mus musculus with 16 samples.

Results

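Interferon-stimulated genes are the genes that cells switch on in answer to interferons. The 49 described here, classic members with the OAS family and the nucleic acid sensors left out, were taken from a fixed list of names, and all 49 were found among the 52636 gene rows of the deposited tables. RNA came from RAW 264.7 cells, a macrophage-like mouse line transformed by Abelson leukaemia virus. Every library came from cells that were seeded in 6-well plates and transfected with 25 nM siRNA for 24 h, and no untransfected group was analysed here. The 4 groups were control siRNA, Cebpb siRNA, control siRNA with isoproterenol and Cebpb siRNA with isoproterenol, each with 4 libraries, 2 replicates in each of 2 experiments. Cebpb encodes the transcription factor C/EBPβ, and isoproterenol is an agonist of β-adrenergic receptors, which raise cAMP. A single siRNA product was used for each target, so the effect of losing Cebpb and any other effect of that siRNA cannot be told apart. The labels name no interferon treatment, so the name of the list rests on general knowledge of these genes, and their induction was not measured here.

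Type I interferons bind a receptor made of IFNAR1 and IFNAR2, whose kinases JAK1 and TYK2 activate transcription factors. These bind the interferon-stimulated response element in the promoters of target genes, whereas interferon-γ has its own receptor and acts mainly through the gamma-activated site. The targets encode proteins that block viral entry, degrade or sense foreign RNA, attach the ubiquitin-like protein ISG15, attack pathogen vacuoles, or dampen the response itself. Macrophages are known to keep a basal level of many of them without infection.

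The promoter stretches below show what the response element looks like in some of the members described. RefSeq promoters on GRCm38.p6, from 250 bases before to 50 after the start site, were matched by symbol for 40 of the 49 genes. The element was searched on both strands as GAAA, any 2 bases, GAAA. It was present in 21 of these 40 genes (52.5%), against 4.04% of the 8426 tested genes with a promoter and 3.44% of all 32851 promoters of the same length. Capitals mark the matches, on either strand, and each stretch is written 5′ to 3′ on the strand of its gene. Isg15, Ifit1, Gbp7 and Gbp2 are shown as members with large rises, Slfn8 and Slfn9 as neighbours that moved in opposite directions, Rsad2 as a member with no call, and Ifitm2 as the member called higher with isoproterenol under both siRNAs.
Isg15 (chr4:156200862-156200921, minus strand): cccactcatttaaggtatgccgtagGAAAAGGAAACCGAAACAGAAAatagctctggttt
Ifit1 (chr19:34640760-34640819, plus strand): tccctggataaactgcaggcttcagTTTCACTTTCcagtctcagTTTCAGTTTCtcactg
Gbp7 (chr3:142530258-142530317, plus strand): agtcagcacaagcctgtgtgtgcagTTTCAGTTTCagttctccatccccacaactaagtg
Gbp2 (chr3:142620579-142620638, plus strand): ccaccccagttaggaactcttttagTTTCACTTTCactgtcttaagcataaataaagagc
Slfn8 (chr11:83020824-83020883, minus strand): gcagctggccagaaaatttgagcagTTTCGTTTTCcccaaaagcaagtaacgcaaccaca
Slfn9 (chr11:82991841-82991900, minus strand): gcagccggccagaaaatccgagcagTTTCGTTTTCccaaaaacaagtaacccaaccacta
Rsad2 (chr12:26456538-26456597, minus strand): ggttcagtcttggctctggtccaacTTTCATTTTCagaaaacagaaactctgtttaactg
Ifitm2 (chr7:140955973-140956032, minus strand): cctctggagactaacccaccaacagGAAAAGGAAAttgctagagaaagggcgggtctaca

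The matches of the 21 genes started between 156 bases upstream and 31 bases downstream of the start site, with a median of 48 bases upstream over 33 sites. Isg15 held 3 overlapping matches, and Bst2, Gbp3, Irgm1 and Trim21 held 2 overlapping matches each. The gamma-activated site, written TTCNNNGAA and read on both strands, was present in 7 of 40 members (17.5%), against 8.13% of tested genes and 8.30% of all promoters. Only Bst2, Gbp7, Ifitm3 and Igtp had both kinds of match. A match is a run of letters and does not show binding.

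**Figure D1:**
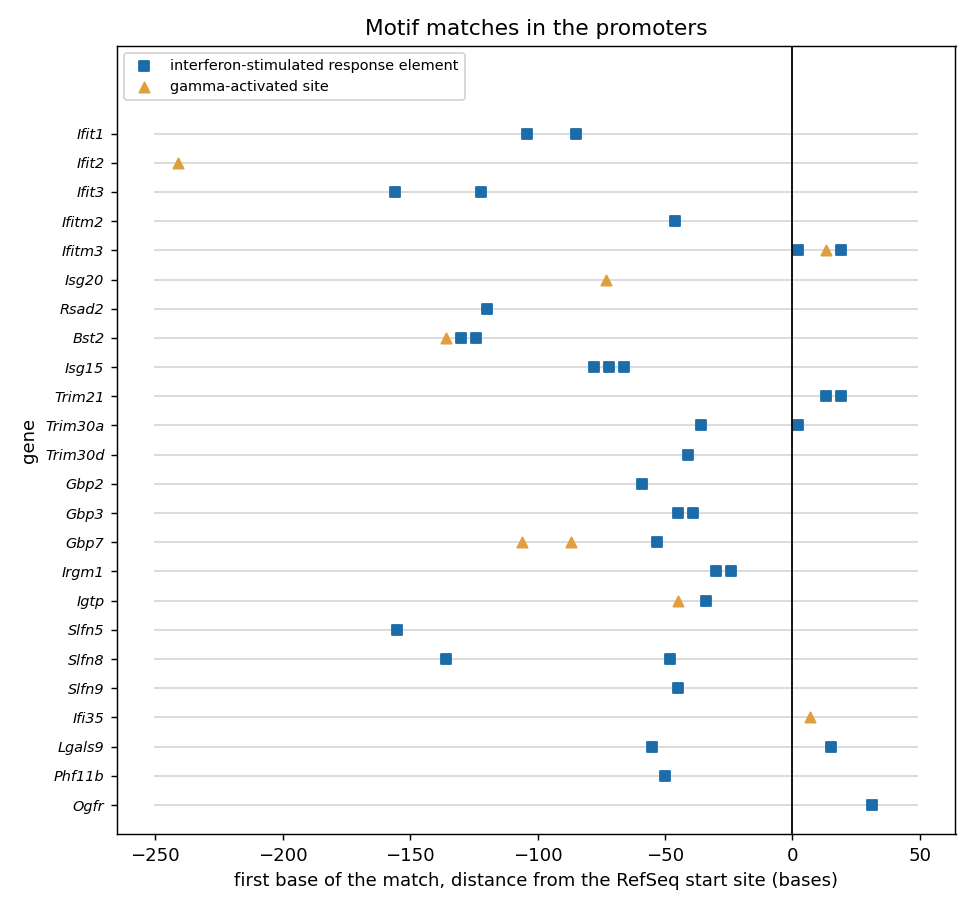
Position of each match in the promoters of the members that hold 1 or more, as the distance in bases of the first matching base from the RefSeq start site (0, black line). Squares mark the interferon-stimulated response element and triangles the gamma-activated site; alternative start sites of a gene share its line. All squares lie between 156 bases upstream and 31 bases downstream of the start.

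Levels are given as RPM, a gene's reads per M (mega) reads sequenced, and always in the order experiment 1 replicate 1, experiment 1 replicate 2, experiment 2 replicate 1, experiment 2 replicate 2. Values at or under 1 RPM were listed as 0, a floor of 9 to 25 reads. Libraries held 9.42 to 25.17 M reads in all and 5.81 to 15.9 M on genes, and the shallowest was replicate 2 of Cebpb siRNA in experiment 2. Cebpb itself, the check of the labels, was at 74.5, 61.3, 81.4 and 87.3 RPM with control siRNA and 11.8, 25, 21.8 and 33.1 RPM with Cebpb siRNA (log2 -1.73 ± 0.19, adjusted p = 1.5e-07), with no overlap. With isoproterenol it was at 101, 78, 99.1 and 90.6 RPM and 28.5, 27.6, 25.8 and 23.9 RPM, respectively (log2 -1.73 ± 0.19, adjusted p = 1.4e-07). Each of the 10 macrophage markers was detected, whereas every marker of B cells, fibroblasts and epithelial cells was listed at 0 throughout. Among the 6 markers of plasmacytoid dendritic cells, strong interferon producers, Siglech, Ccr9 and Ly6d were listed at 0 in all 16 libraries. The others, Tcf4, Bst2 and Il3ra, were detected, with a highest level of 144 RPM. The labels call the 4 libraries of a group biological replicates without naming separate cultures, so p-values rest only on the spread between these libraries. In the fit this spread was pooled over the 4 groups, after the shift between the 2 experiments was taken out.

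Interferon-stimulated genes were higher after Cebpb siRNA. Without isoproterenol 43 of the 49 rose and 2 fell by limma at an adjusted p of 0.05, and 21 rose at least 2-fold. The same test called 30.7% of the 11141 tested genes higher and 30.2% lower, so a majority of tested genes were called for this siRNA. Of these 11141 genes, 498 rose at least 2-fold. The median change was log2 0.88 over the members and 0.01 over all tested genes. The members' fitted log2 changes ran from -0.68 for Slfn9 to 2.09 for Ifi44. In 40 of 49 members both Cebpb siRNA libraries lay above both control libraries within each experiment, and 22.8% of all tested genes did so. Because RNA was taken from whole cultures, more cells expressing a gene and more RNA per cell cannot be told apart. All 49 passed the filter on low values, and 9 of them were at the floor in some libraries. With only genes above the floor in all 16 libraries, each of the 40 members left had the same call as in the main fit (35 higher, 2 lower).

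**Figure D2:**
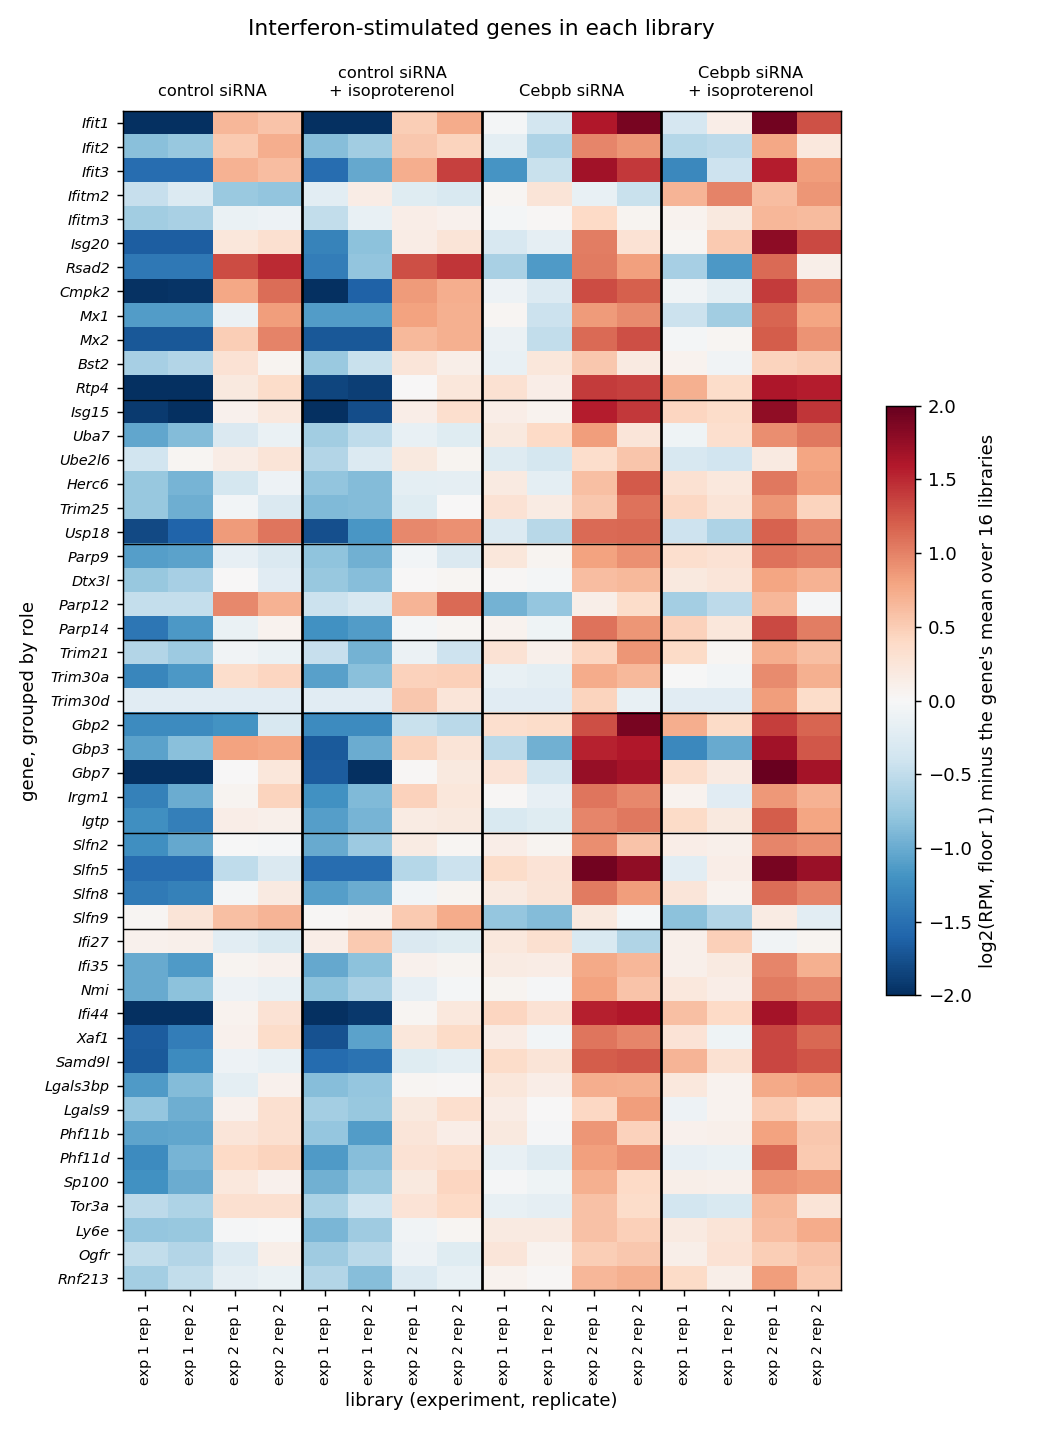
Level of each of the 49 genes in each of the 16 libraries, as log2 RPM (values of 0 set to 1 RPM) minus the gene's mean over the libraries, with genes grouped by role and libraries by group. Most rows are blue (low) in the experiment 1 libraries with control siRNA and red (high) in the experiment 2 libraries with Cebpb siRNA. Slfn9, Ifi27 and Ifitm2 are among the exceptions, and Parp12 follows this pattern only weakly.

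Among the 12 antiviral effectors, 11 rose and Rsad2 was not called. Rtp4, a chaperone of receptor transport induced by interferon, was at 4.88, 5.62, 29 and 32.6 RPM with control siRNA and at 31.3, 27.6, 66.3 and 64.8 RPM with Cebpb siRNA. The groups did not overlap within either experiment, although the experiment 1 libraries with Cebpb siRNA lay near the experiment 2 controls (log2 1.88 ± 0.21, adjusted p = 2.9e-07). Ifit1, which binds foreign RNA by its 5′ end, was at 0, 0, 7.15 and 6.7 RPM with control siRNA and 4.38, 3.49, 13.7 and 16.9 RPM with Cebpb siRNA (log2 1.58 ± 0.20, adjusted p = 4.6e-07). Its experiment 1 controls were listed at 0, and values at the floor understate the change. Cmpk2, a mitochondrial nucleotide kinase, was at 3.94, 4.0, 26.3 and 33.4 RPM and at 14.4, 12.8, 38.1 and 35.6 RPM, respectively, a rise of log2 1.13 ± 0.25 that was 1.82 in experiment 1 and 0.43 in experiment 2. Ifitm3, which blocks viral entry from endosomes, was at 723, 743, 1063 and 1087 RPM and 1137, 1184, 1545 and 1216 RPM (log2 0.59 ± 0.07, adjusted p = 2.7e-07). All Cebpb siRNA libraries lay above all control libraries for Ifitm3. Ifitm2, its neighbour on chromosome 7, was at 25.5, 28.8, 20.9 and 20.1 RPM and 35.9, 41.6, 31.5 and 25.8 RPM (log2 0.58 ± 0.10, adjusted p = 2.2e-05). The low members Ifit3, Mx1, Mx2 and Isg20 were each listed at 0 in both experiment 1 controls. Ifit3, a partner of Ifit1, was at 0, 0, 4.61 and 4.38 RPM with control siRNA and 1.27, 2.1, 9.18 and 7.64 RPM with Cebpb siRNA. The dynamin-like GTPase Mx1 was at 0, 0, 1.98 and 3.84 RPM and 2.21, 1.6, 3.89 and 4.14 RPM, and its relative Mx2 at 0, 0, 4.52 and 6.43 RPM and 2.96, 2.3, 7.07 and 7.85 RPM. Isg20, an RNA exonuclease, was at 0, 0, 3.67 and 3.89 RPM and 2.49, 2.75, 6.36 and 3.82 RPM. All 4 were called higher, and in experiment 2 the groups of Isg20 overlapped. Bst2, or tetherin, which holds budding virus at the cell surface, and Ifit2, another RNA-binding IFIT protein, rose by log2 0.51 and 0.43.

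Rsad2, or viperin, which makes a chain-terminating nucleotide and lies beside Cmpk2 on chromosome 12, was not called. It was at 26.2, 25.9, 174 and 198 RPM with control siRNA and at 44.8, 32.1, 145 and 124 RPM with Cebpb siRNA (log2 0.12 ± 0.25, adjusted p = 0.71). Both Cebpb siRNA libraries were above the controls in experiment 1 and below them in experiment 2, with changes of log2 0.59 and -0.35. The libraries with isoproterenol gave 26.9, 40.4, 171 and 189 RPM for control siRNA and 44.4, 31.9, 154 and 76.3 RPM for Cebpb siRNA, with changes of 0.25 and -0.66. Fitted alone, experiment 1 called the rise without isoproterenol (adjusted p = 0.048) and experiment 2 called the fall with it (adjusted p = 0.034). The difference between the experiments was not called over all genes (log2 -0.93 ± 0.28, adjusted p = 0.17).

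Of the 6 genes of ISG15 conjugation, 5 rose. Isg15, the ubiquitin-like modifier, was at 5.93, 4.96, 23.8 and 26 RPM with control siRNA and 24.6, 23.5, 67 and 59.8 RPM with Cebpb siRNA (log2 1.83 ± 0.16, adjusted p = 4.6e-09). The groups were apart within each experiment, and the experiment 1 libraries with Cebpb siRNA lay near the experiment 2 controls. Uba7, which activates ISG15, rose by log2 1.09, Herc6, the ligase that attaches it in mouse cells, by 1.08, and Trim25, a ligase that activates the RNA sensor RIG-I, by 1.13. Ube2l6, the enzyme that carries ISG15 between them, was not called. It was at 2.15, 2.9, 3.13 and 3.35 RPM and 2.35, 2.2, 3.58 and 4.14 RPM (log2 0.14 ± 0.17, adjusted p = 0.48), with groups that overlapped in experiment 1. With isoproterenol it was at 1.88, 2.32, 3.24 and 2.94 RPM and 2.26, 2.16, 3.18 and 4.89 RPM. Usp18, which removes ISG15 and damps signalling at the interferon receptor, rose by log2 0.82 ± 0.19. Its 4 control libraries were at 4.62, 5.27, 28.9 and 33.6 RPM and the 4 with Cebpb siRNA at 13.3, 10.9, 35.4 and 35.4 RPM, so that the rise was 1.34 in experiment 1 and 0.30 in experiment 2.

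Parp9 and its partner Dtx3l, which form an ADP-ribosyltransferase and ubiquitin ligase complex, rose together with Parp14. Parp9 was at 11.2, 11.4, 21.4 and 19.7 RPM and 28.3, 25.1, 41.9 and 45.3 RPM with control and Cebpb siRNA, and all 4 libraries of 1 group lay above all 4 of the other (log2 1.25 ± 0.08, adjusted p = 2.7e-11). Parp14 was at 28.3, 34.8, 70.4 and 80.8 RPM and 80.7, 72.6, 164 and 142 RPM (log2 1.24 ± 0.10, adjusted p = 3.7e-10), and Dtx3l rose by log2 0.81. Parp12, a mono-ADP-ribosyltransferase of the same family, went the other way. It was at 21.8, 21.8, 58.6 and 49.2 RPM with control siRNA and 15.7, 17.7, 32.9 and 38.9 RPM with Cebpb siRNA, lower within each experiment (log2 -0.40 ± 0.12, adjusted p = 0.0073). With isoproterenol it was at 22.4, 24.2, 48.4 and 66.4 RPM and 18.9, 21.1, 47.9 and 29.9 RPM (log2 -0.34 ± 0.12, adjusted p = 0.021). In experiment 1 those groups were close, and the call was lost when replicate 2 of experiment 2 was left out of either isoproterenol group (adjusted p = 0.11 without that of control siRNA and 0.13 without that of Cebpb siRNA).

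All 5 GTPases that act on pathogen vacuoles rose. Gbp2 was listed at 0 in both experiment 1 controls (0, 0, 1.04 and 1.92 RPM) and reached 3.01, 3.1, 5.84 and 8.91 RPM with Cebpb siRNA (log2 1.99 ± 0.20, adjusted p = 1.8e-08), a change that the floor understates. Gbp7 was at 1.84, 1.84, 7.54 and 8.8 RPM and 9.08, 5.84, 25.3 and 23.9 RPM (log2 1.87 ± 0.16, adjusted p = 1.9e-09). Both are guanylate-binding proteins encoded on chromosome 3. Gbp3, encoded beside them, was at 1.52, 1.8, 5.61 and 5.49 RPM and 2.21, 1.65, 9.34 and 9.76 RPM, which overlapped in experiment 1 (log2 0.58 ± 0.20, adjusted p = 0.018). That call was lost without replicate 1 (adjusted p = 0.053) or replicate 2 (adjusted p = 0.060) of the experiment 2 controls. The immunity-related GTPases Irgm1 and Igtp rose by log2 1.02 and 1.05. Among TRIM ligases, Trim21, a receptor for antibody in the cytosol, and Trim30a rose by 0.88 and 0.77. Trim30d stood at 0 in every control siRNA library and in experiment 1 of every group. In experiment 2 its levels were between 1.06 and 2.1 RPM in the other 3 groups, close to the floor, and no fold is given. Its promoter was 90.8% identical to that of Trim30a.

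The 4 Schlafen genes, regulators of growth and translation clustered on chromosome 11, split. Slfn5 was at 0, 0, 2.03 and 2.37 RPM with control siRNA and 3.72, 3.49, 11 and 9.87 RPM with Cebpb siRNA (log2 2.08 ± 0.18, adjusted p = 2.1e-09), also understated by the floor. Slfn8 was at 7.24, 7.55, 18.7 and 21.8 RPM and 21.8, 22.9, 39.4 and 34.4 RPM (log2 1.32 ± 0.11, adjusted p = 1.0e-09), and Slfn2 rose by log2 1.07. Slfn9 (chr11:82978390-82991830 on GRCm38), next to Slfn8 (chr11:83002158-83020810) on the minus strand, fell. It was at 22.3, 25.8, 33 and 34.5 RPM with control siRNA and 12.6, 11.9, 24.7 and 21 RPM with Cebpb siRNA (log2 -0.68 ± 0.10, adjusted p = 7.0e-06). With isoproterenol it was at 21.9, 22.7, 31.1 and 36 RPM and 12.3, 14.4, 24.4 and 18.8 RPM (log2 -0.63 ± 0.10, adjusted p = 1.9e-05). Both Cebpb siRNA libraries lay below both controls in each experiment under either condition. The promoters of Slfn8 and Slfn9 were identical at 247 of 305 aligned positions (81.0%), and the capital letters in their stretches above are the same. These genes are close paralogs. Reads that mapped to several places had a row of their own, 19.4% to 22.3% of each library, and were not assigned to a gene. The values of Slfn8 and Slfn9 therefore leave out reads that mapped to both, as do those of Trim30a and Trim30d. How many such reads each gene had is not known, so their levels remain uncertain.

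Of the remaining 15 members 14 rose. Ifi44, a cytosolic protein of the antiviral response, had the largest fitted change of the 49, next to Slfn5 and Gbp2, whose values the floor understates. It was at 17.7, 19.6, 92.1 and 108 RPM with control siRNA and at 119, 108, 259 and 266 RPM with Cebpb siRNA (log2 2.09 ± 0.22, adjusted p = 4.1e-07). The lowest Cebpb siRNA library lay just above the highest control library, and the groups were far apart within each experiment. Samd9l, which restricts poxviruses, was at 15.8, 21.3, 47 and 45.9 RPM and 65, 60.5, 117 and 119 RPM (log2 1.64 ± 0.11, adjusted p = 3.5e-11). Xaf1, an antagonist of the apoptosis inhibitor XIAP, was at 4.67, 5.66, 15.7 and 19.1 RPM and 16.3, 14.3, 31.1 and 29.2 RPM (log2 1.27 ± 0.16, adjusted p = 5.0e-07). Ifi35 and Nmi, which bind each other, rose by log2 1.02 and 0.96. The secreted glycoprotein Lgals3bp, the galectin Lgals9 and the surface protein Ly6e rose by 1.06, 0.77 and 0.83. Phf11b, Phf11d, the nuclear body protein Sp100, the opioid growth factor receptor Ogfr and the ubiquitin ligase Rnf213 rose by 0.73 to 0.85, and the torsin Tor3a by 0.36. Ifi27, a small membrane protein, was at 40.6, 41.4, 33.3 and 31.1 RPM and 44.4, 48.2, 31.3 and 25.3 RPM and was not called (log2 0.07 ± 0.10, adjusted p = 0.52). Its Cebpb siRNA libraries were above the controls in experiment 1 and overlapped with them in experiment 2. With isoproterenol Ifi27 was at 42.1, 55.2, 31.6 and 32.7 RPM with control siRNA and 41.2, 53.6, 36.6 and 40 RPM with Cebpb siRNA (log2 0.17 ± 0.10, adjusted p = 0.12), with overlap in experiment 1.

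**Figure D3:**
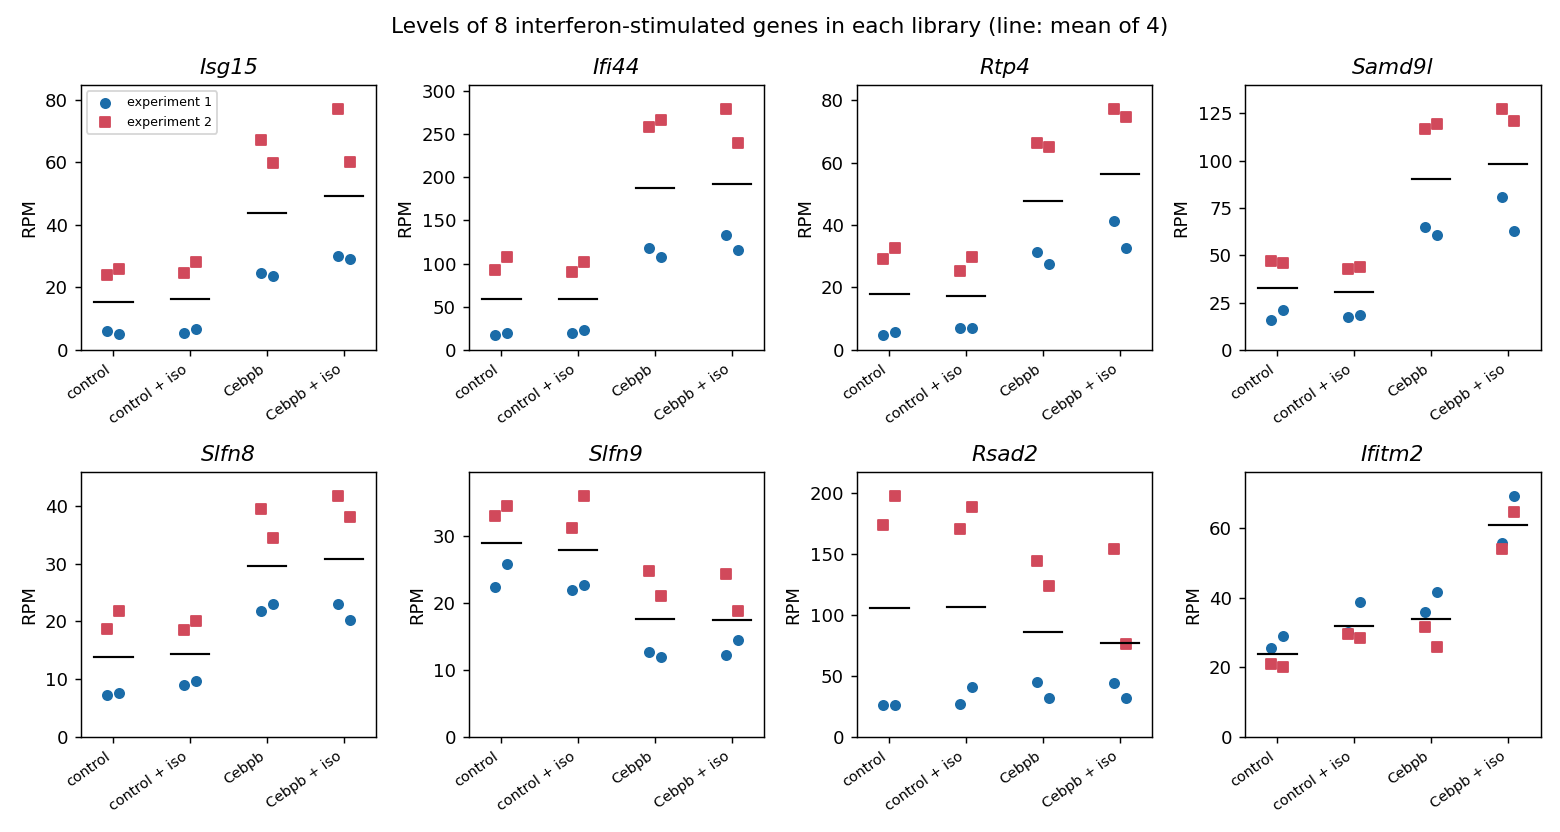
RPM of 8 members in each library (circles, experiment 1; squares, experiment 2; line, mean of 4) for control and Cebpb siRNA without and with isoproterenol (iso). Isg15, Ifi44, Rtp4, Samd9l and Slfn8 are higher with Cebpb siRNA, Slfn9 is lower, Rsad2 follows the experiment, and Ifitm2 is highest with both treatments.

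The size of the response was then set beside the promoter matches, as a description. Members with a match had a median change of log2 0.83 and those without one 1.02 after Cebpb siRNA. Over all tested genes the medians were 0.15 with a match and 0.01 without. Slfn9, which fell, and Rsad2, which was not called, both carry a match, whereas none was found in the promoters of Ifi44 and Samd9l.

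With isoproterenol present, 40 of the 49 members were higher and 2 lower with Cebpb siRNA than with control siRNA, against 31.4% and 30.1% of all tested genes. These libraries are separate from those of the comparison without isoproterenol. The members' median change was log2 0.98, against 0.02 over all tested genes, and 21 rose at least 2-fold, against 516 of the 11141 tested genes. The lower members were again Slfn9 and Parp12. Ifi44 was at 19, 23.1, 90.4 and 102 RPM with control siRNA and 133, 116, 279 and 239 RPM with Cebpb siRNA (log2 2.06 ± 0.22, adjusted p = 4.4e-07). Gbp7 was at 2.37, 1.61, 7.63 and 8.65 RPM and 9.56, 8.5, 29.6 and 23.7 RPM (log2 2.02 ± 0.16, adjusted p = 5.3e-10), and Isg15 at 5.39, 6.54, 24.6 and 28.2 RPM and 30.1, 29, 77.1 and 60.2 RPM (log2 1.91 ± 0.16, adjusted p = 2.3e-09). For each of the 3 the groups were apart within both experiments. Rtp4 was at 7.07, 6.87, 25.4 and 29.6 RPM and 41.2, 32.7, 77.2 and 74.7 RPM, and Samd9l at 17.5, 18.2, 42.8 and 44 RPM and 80.9, 62.9, 127 and 121 RPM. Parp9 was at 13.8, 12.4, 23.2 and 19.8 RPM and 30.5, 29.4, 51.2 and 48.7 RPM, and Parp14 at 33.3, 35.5, 74.6 and 78.8 RPM and 105, 90, 193 and 156 RPM. For these 4 genes every Cebpb siRNA library lay above every control library. Slfn8 was at 9.0, 9.64, 18.5 and 20.1 RPM and 22.9, 20.2, 41.8 and 38.1 RPM, and Xaf1 at 4.4, 7.04, 17.4 and 19.2 RPM and 17.9, 13.9, 37.3 and 32.7 RPM. Slfn5 was at 0, 0, 1.94 and 2.14 RPM and 2.48, 3.17, 10.8 and 9.59 RPM, Gbp2 at 0, 0, 1.76 and 1.66 RPM and 3.94, 3.11, 6.22 and 5.38 RPM, and Ifit1 at 0, 1.12, 6.34 and 7.53 RPM and 3.58, 4.95, 17.2 and 10.9 RPM. The fitted log2 changes of these 9 genes ran from 1.19 to 2.00; those of Slfn5, Gbp2 and Ifit1, with control libraries at 0, are understated. Of the low members, Mx2 was at 0, 0, 5.04 and 5.29 RPM and 3.14, 3.3, 7.48 and 6.02 RPM and Isg20 at 1.24, 1.78, 3.47 and 3.74 RPM and 3.21, 4.5, 10.8 and 7.82 RPM, both called higher. The members not called numbered 7, namely Rsad2, Ube2l6, Trim30d, Ifi27, Ifit2, Ifit3 and Mx1. In other settings of the fit, Mx1 was called higher in 3, Ifi27 in 3 and Ifit2 in 1, and Rsad2 lower in 1. The calls of Tor3a and Parp12 were each lost in 5 such settings, and those of some other members in 1 or 2. Ifit2 was at 9.6, 10.7, 25.3 and 23.5 RPM and 11.7, 12.1, 29.7 and 20.1 RPM (log2 0.18 ± 0.12, adjusted p = 0.19), and in experiment 2 its groups overlapped. Ifit3 was at 0, 1.41, 4.72 and 7.37 RPM and 1.17, 2.16, 8.51 and 5.14 RPM, and Mx1 at 0, 0, 3.79 and 3.52 RPM and 1.61, 1.33, 4.86 and 3.72 RPM, with overlap in experiment 2 for both and in experiment 1 for Ifit3. A call in 1 comparison and none in the other does not show that the effects differed: the difference of the siRNA effects, which is the same contrast as that of the isoproterenol effects, was called for none of the 49 members.

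**Figure D4:**
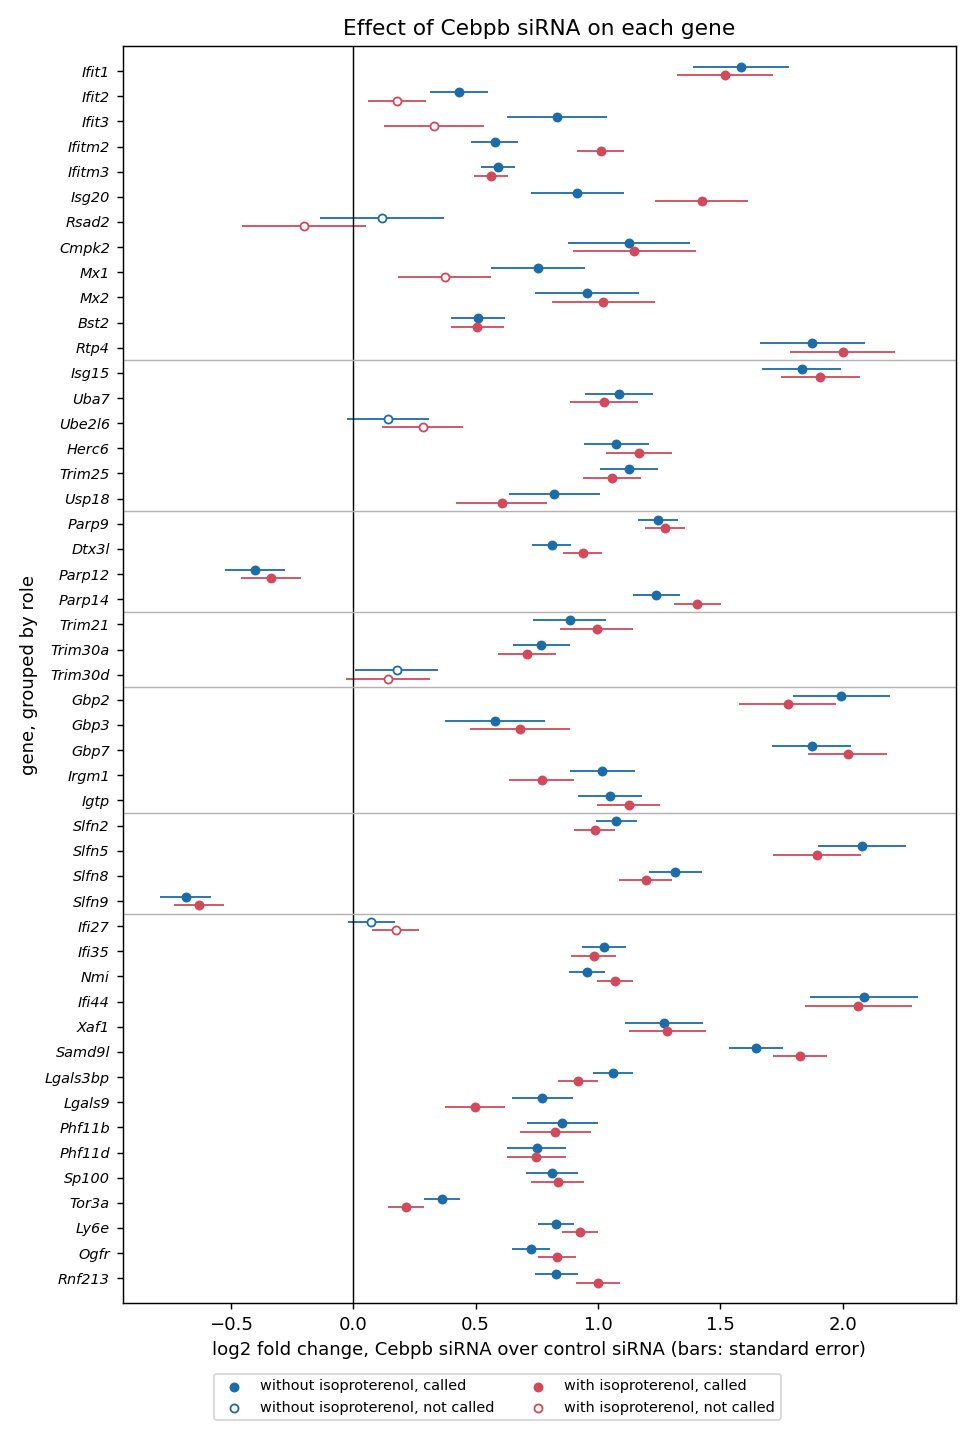
Log2 fold change of each member, Cebpb siRNA over control siRNA, without (blue) and with (red) isoproterenol; bars are standard errors, filled points were called by limma at an adjusted p of 0.05, and genes are grouped by role. Points lie to the right of 0 except for Slfn9, Parp12 and, with isoproterenol, Rsad2; where libraries of a compared group are at the floor, the plotted change can be understated.

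Isoproterenol moved few of these genes, as it moved few of all tested genes. In control siRNA cells 1 of 49 members was higher and none lower, against 1.18% and 0.431% of all tested genes. An unadjusted p under 0.05 was found for 2 members and for 1241 of the 11141 tested genes. In Cebpb siRNA cells 2 were higher and none lower, against 2.99% and 2.47%. Here 6 members had an unadjusted p under 0.05, as had 2150 of the 11141 tested genes. The median change of the members was log2 0.06 in control and 0.01 in Cebpb siRNA cells. Ifitm2 was the member called in both. In control siRNA cells it was at 25.5, 28.8, 20.9 and 20.1 RPM without and 30.1, 38.7, 29.6 and 28.3 RPM with isoproterenol (log2 0.39 ± 0.10, adjusted p = 0.044). That call was lost in 14 of 28 other settings, 9 of them fits that left out 1 library (adjusted p = 0.056 to 0.18). These were each experiment 2 library of the control groups, replicate 1 of experiment 1 for either siRNA, replicate 2 of experiment 1 for either siRNA with isoproterenol, and replicate 1 of experiment 2 for Cebpb siRNA with isoproterenol. In Cebpb siRNA cells Ifitm2 was at 35.9, 41.6, 31.5 and 25.8 RPM without and 55.7, 69.3, 53.9 and 64.6 RPM with isoproterenol, with all 4 treated libraries above all 4 untreated (log2 0.82 ± 0.10, adjusted p = 1.2e-05). Isg20 in Cebpb siRNA cells was at 2.49, 2.75, 6.36 and 3.82 RPM and 3.21, 4.5, 10.8 and 7.82 RPM (log2 0.67 ± 0.19, adjusted p = 0.038). This call was lost in 12 of 27 other settings, 5 of them fits that left out 1 library (adjusted p = 0.0504 to 0.14). These were replicate 1 of experiment 1 and replicate 2 of experiment 2 for Cebpb siRNA, replicate 2 of experiment 1 and replicate 1 of experiment 2 for Cebpb siRNA with isoproterenol, and replicate 1 of experiment 2 for control siRNA with isoproterenol. Ifitm3 was at 723, 743, 1063 and 1087 RPM without and 828, 1049, 1281 and 1231 RPM with isoproterenol in control siRNA cells (log2 0.26 ± 0.07, adjusted p = 0.08). The isoproterenol effect differed between Cebpb and control siRNA cells for 0 of 49 members by limma (background 0.117% higher and 0.117% lower). The unadjusted p was under 0.05 for 1 member and for 707 of the 11141 tested genes. For Ifitm2 the difference of the isoproterenol effects was log2 0.43 ± 0.14 (adjusted p = 0.36). The isoproterenol comparisons use the same libraries as the siRNA comparisons above.

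The members also differed between the experiments. Between experiment 2 and experiment 1, 47 of 49 members were higher and 2 lower, against 17.3% and 15.4% of all tested genes, with a median of log2 0.95. For 44 of 49 members both experiment 2 libraries lay above both experiment 1 libraries in each of the 4 groups, and 6.08% of all tested genes did so. The summed level of the members in control siRNA cells was 1702 and 1763 RPM in experiment 1 and 3200 and 3313 RPM in experiment 2. With Cebpb siRNA it was 3189 and 3120 RPM and then 4951 and 4570 RPM. The largest fitted differences were those of Ifit1 (log2 2.24 ± 0.14, adjusted p = 4.9e-10), Ifit3 (log2 2.18), Rsad2 (log2 2.16), Cmpk2 (log2 2.09), Gbp3 (log2 2.08) and Usp18 (log2 2.05). Ifitm2 and Ifi27 were lower in experiment 2, with changes of log2 -0.29 ± 0.07 (adjusted p = 0.0026) and -0.49 ± 0.07 (adjusted p = 1.2e-05). The labels give the experiments only a number, so what differed between them was not tested. Slfn9 and Parp12, which fell with Cebpb siRNA, were higher in experiment 2 (log2 0.67 and 1.15). For 22 of 49 members the mean of the experiment 1 Cebpb siRNA libraries lay above that of the experiment 2 controls, and for 26 it lay below.

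The siRNA effect itself was smaller in experiment 2 for 6 members and larger for none, against 0.377% and 0.233% of all tested genes. The unadjusted p was under 0.05 for 25 members and for 1407 of the 11141 tested genes. This contrast, which averages over isoproterenol and was chosen after the data had been seen, gave log2 -1.36 ± 0.17, adjusted p = 3.1e-04 for Cmpk2. It gave log2 -1.13 ± 0.12, adjusted p = 8.9e-05 for Ifi44 and log2 -1.12 ± 0.13, adjusted p = 2.7e-04 for Rtp4. Usp18, Isg15 and Trim30a followed at log2 -0.92, -0.83 and -0.62. Without isoproterenol all 6 were higher with Cebpb siRNA in both experiments. Those effects were 2.65 and 1.52 for Ifi44, 2.54 and 1.21 for Rtp4, and 2.20 and 1.47 for Isg15. With isoproterenol the groups of Usp18 overlapped in experiment 2. With the other settings tried, including leaving out each library, this contrast stayed negative for all 6. Its smallest size was log2 -0.32, for Isg15 with a pseudocount of 5 RPM. For isoproterenol, 0 of 49 members differed between the experiments by limma (background 0% higher and 0% lower). Here 2 members and 518 of the 11141 tested genes had an unadjusted p under 0.05.

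**Figure D5:**
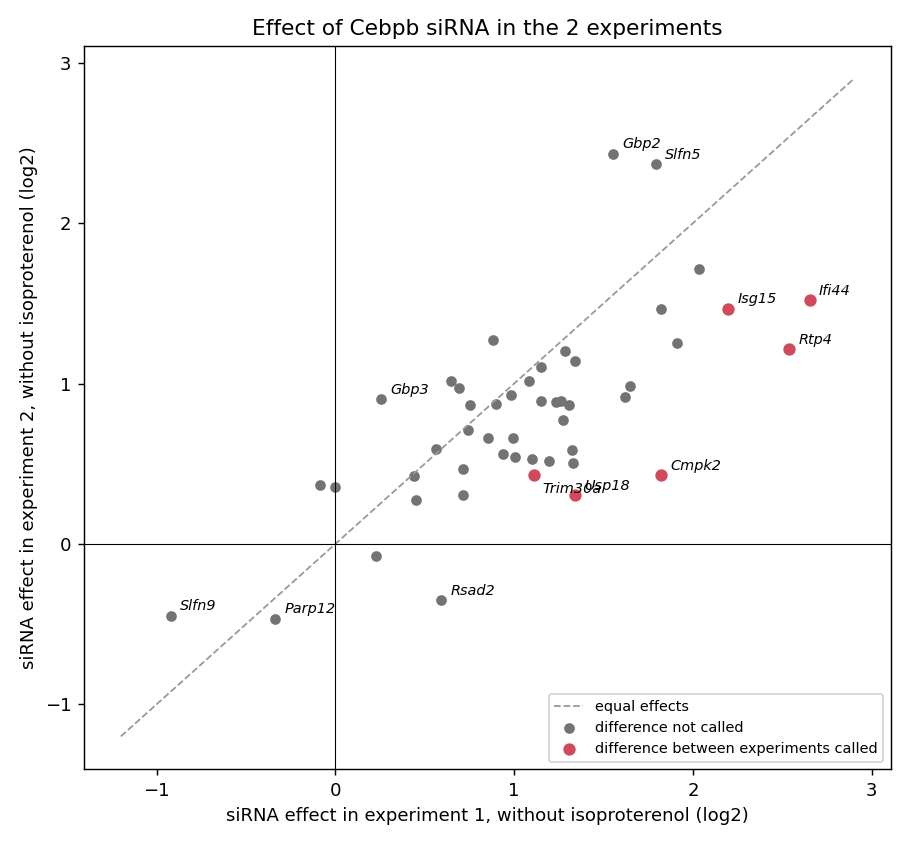
Log2 effect of Cebpb siRNA without isoproterenol in experiment 1 (horizontal) and experiment 2 (vertical), 1 point per member, with the dashed line at equal effects. The 6 red members, whose siRNA effect differed between the experiments by limma, lie below the line; Slfn9 and Parp12 are negative in both experiments and Rsad2 changes sign.

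Other genes of the interferon pathway were read from lists made up by their known roles. Without isoproterenol, the shares of all tested genes to set beside each count below are 30.7% higher and 30.2% lower. The 7 ligands, among them Ifnb1, which encodes interferon-β, were listed at 0 in all 16 libraries, so none was measured above 1 RPM. Stat2, a transcription factor activated at the receptor, rose by log2 0.49 ± 0.09 without isoproterenol. Irf9, its DNA-binding partner, was at 30.8, 30.3, 55.7 and 54.2 RPM with control siRNA and 27.8, 28.7, 34.4 and 36.4 RPM with Cebpb siRNA, lower within each experiment (log2 -0.29 ± 0.09, adjusted p = 0.0085). With isoproterenol the changes of Stat2 and Irf9 were 0.68 and -0.46. Jak1, a kinase of the receptor, was lower (log2 -0.84). Of the 4 receptor chains 3 were higher and 1 lower, with Ifnar2 at log2 0.58, Ifngr1 at 0.68 and Ifngr2, the lower one, at -0.65.

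Of 6 IRF factors 4 were higher and 2 lower. Irf7, which amplifies interferon production, was at 5.62, 5.75, 28.9 and 30.1 RPM with control siRNA and 17.6, 17.2, 39.2 and 32.4 RPM with Cebpb siRNA (log2 1.03 ± 0.19, adjusted p = 1.1e-04). Its rise was log2 1.67 in experiment 1 and 0.39 in experiment 2. Irf1 and Irf5 rose by 0.55 and 0.83, and Irf8, which governs macrophage identity, changed by -0.70. Among 6 tested feedback regulators none was higher and 2 were lower, Ptpn2 (log2 -0.48) and Ptpn11 (log2 -0.28), both tyrosine phosphatases. Of 6 genes of interferon induction 3 were higher and 2 lower, with Myd88, an adaptor of Toll-like receptors, at log2 0.74, the adaptor Traf3 at 0.41 and the kinase Ikbke at -0.63. The OAS family and sensors, which detect foreign nucleic acid, had 12 of 16 higher and 3 lower. Oas2 was at 2.99, 3.64, 9.28 and 11.4 RPM and 29.5, 29.6, 49.4 and 61.6 RPM (log2 2.88 ± 0.16, adjusted p = 3.3e-12), and Oasl2 and Ifih1, which encodes a sensor of long double-stranded RNA, rose by log2 1.99 and 1.24. Over the 44 tested genes of these lists 24 were higher and 12 lower, with a median of log2 0.38. The 12 lower are near the share of all tested genes called lower, as are the 2 of 6 feedback regulators and the 2 of 6 IRF factors.

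Some cell type markers also differed between control and Cebpb siRNA cells without isoproterenol. The summed level of the macrophage markers was 1744 to 2207 RPM with control siRNA and 2102 to 2317 RPM with Cebpb siRNA. In experiment 2 these sums overlapped (2077 and 2207 RPM against 2317 and 2102 RPM). Of the 10, 7 were higher and 2 lower, against 30.7% and 30.2% of all tested genes, with changes from log2 -1.38 to 0.74. The sum for plasmacytoid dendritic cell markers was 99.97 to 119 RPM and 125 to 154 RPM. Of the 3 tested, 2 were called higher, against the same 30.7% of all tested genes. Bst2, itself a member, was at most 23.8 RPM in any library, so most of each sum came from Tcf4 and Il3ra. The defining Siglech was at 0. Conventional dendritic cell markers summed to 9.35 to 10.6 RPM and 3.61 to 7.94 RPM, with Flt3, Xcr1 and Clec9a at 0. Of the 2 tested, 1 was called lower (log2 -1.99) and none higher. T and NK cell markers summed to at most 6.20 RPM in any library, from Lck alone, and neutrophil markers to at most 5.84 RPM. Lck (log2 -0.50) and the 1 neutrophil marker tested (log2 -1.37) were called lower. The share of all tested genes called lower was the same 30.2%. The part of these differences in the members' changes was not tested.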

How the data were processed

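Gene expression was measured by 3′ end sequencing (Lexogen QuantSeq 3′ FWD, per the labels' protocols) in 16 libraries, 4 in each of 4 groups. The submitters' processing notes name STAR 2.5.3a and the GRCm38 build. The sources used here give neither the counting tool and its strand setting nor how much isoproterenol was used for how long. As deposited by the authors, the tables hold log2 RPM per library, a unit read from the values: converted back, 100% of entries were whole reads within 0.1 read. Reads not assigned to a gene, 35.0% to 38.2% of each library, have rows of their own and were left out of the tests. Counting error is covered only through the spread between libraries.

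Because the values are log2, limma 3.58.1 (R 4.3.3) with a trend and robust estimation was used. Scaling used trimmed means of the log ratios between libraries (30% by ratio, 5% by level), a common floor was set, and the test kept the 11141 genes that passed it in 4 libraries or more. The fit had group and experiment as terms over all 16 libraries, with Benjamini-Hochberg adjustment over all genes and a threshold of 0.05. Effects within each experiment came from 1 fit of group by experiment. Errors of log2 changes are standard errors; changes of genes with libraries at the floor can be understated. On simulated data with known changes the fit was run before use. Far fewer genes were changed there than were called here for Cebpb siRNA, so its error rates in these data remain unknown.

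The members, their roles, the pathway lists and the tests were chosen with earlier results of these data known. Values by library are given for the 12 called members with the largest change after Cebpb siRNA and for every member that fell. They are also given for every member called for isoproterenol, those not called in both siRNA comparisons, and those at the floor. Of the last, Gbp3 has them only without isoproterenol and Trim30d has a range. Up to 3 genes per pathway list are named, with others such as Irf7 and Irf9 added, most by their change only. A gene of these lists is not reported here. Promoter sequences are from RefSeq (GRCm38.p6), and gene coordinates from GENCODE vM21 on GRCm38. Promoters of paralogs were aligned globally (match 1, mismatch -1, gap -2, Biopython 1.88). Alternatives tried were other scalings, filters, pseudocounts, variance models and terms, each experiment alone, and leaving out each library.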

Additional observations from a re-analysis of the deposited data

Results flagged for a closer look

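The effect of Cebpb siRNA differed between the experiments for 6 members, by a test of the difference itself in limma. The effect in experiment 2 minus that in experiment 1 was log2 -1.36 for Cmpk2 (adjusted p = 3.1e-04), -1.12 for Rtp4 (adjusted p = 2.7e-04) and -1.13 for Ifi44 (adjusted p = 8.9e-05). It was log2 -0.92 for Usp18 (adjusted p = 0.011), -0.83 for Isg15 (adjusted p = 0.003) and -0.62 for Trim30a (adjusted p = 0.0022). Without isoproterenol, the Cebpb siRNA libraries of all 6 were above the controls in both experiments. With isoproterenol this held for all but Usp18, whose groups overlapped in experiment 2. Fitted alone by limma, experiment 2 did not call Usp18 with isoproterenol (log2 0.20, adjusted p = 0.17). Among the 16 libraries, the control siRNA libraries of experiment 1, without and with isoproterenol, were the lowest. The call for Isg15 was lost with a pseudocount of 5 RPM (log2 -0.32, adjusted p = 0.20), and the cause was not tested.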

How the results depend on the processing

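The main counts of called members, 45 and 42 for Cebpb siRNA without and with isoproterenol, depended most on the term for the experiment: with no such term they were 25 and 27, and the isoproterenol counts were 0 in control and 1 in Cebpb siRNA cells. Counts in this section are of members only. The shares of all tested genes called under each setting are not given, so no comparison with other genes is drawn. Across the other settings that kept all 49 members tested, the counts for Cebpb siRNA were within 1.5 times the main ones, and leaving out each library gave 44 to 45 and 41 to 43. For isoproterenol in control siRNA cells, the count of 1 became 0 with a filter of 1 library, with limma without trend and robust estimation and with experiment 2 alone, and 2 with only the libraries of the 2 groups; leaving out each library gave 0 to 2. In Cebpb siRNA cells the count of 2 became 1 with a filter of 1 library or of all 16, with log2(RPM + 1), without trend and robust estimation, with experiment 1 or experiment 2 alone, and with only the libraries of the 2 groups; leaving out each library gave 1 to 3. The difference of the isoproterenol effects gave 0 throughout, and all tested members were called between the experiments. No called change that was followed across these settings turned its direction. In the main fit, the median change over all tested genes did not exceed log2 0.02 in size in any siRNA or isoproterenol comparison or in their difference. The replicate numbers did not pair the libraries (12 correlations from -0.19 to 0.23, 3 over 0.1), and with a replicate block the counts of calls were 45, 42, 1, 2 and 0, as without it. Depth limits members near the floor: 9 members were listed at 0 in some libraries, and a change can be understated where these libraries are in the groups compared. The causes of the changes between settings were not tested.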
